A study of Homo sapiens with 6 samples.

Results

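The genes described here are 8 genes of epithelial defence and of the acute-phase response, SLPI, PI3, SAA1, SAA2, LCN2, C3, CFB and PDZK1IP1, among the 23062 identifiers measured in DU145 prostate cancer cells. They were picked by gene symbol, and they were chosen by their values in the comparison of taraxasterol (TAX) with control cells, which most of them show as lower levels. That comparison is therefore given for them as a description, with no test. DU145, labelled WT for genotype, is an androgen-independent line of human prostate cancer established from a metastasis in the brain. Cells were kept in MEM medium with serum, and 3 control libraries came from cells left in medium for 48 h, while 3 libraries came from cells given TAX, a plant triterpene, at its IC50 for the same time. TAX was dissolved in DMSO, and whether control cells also received DMSO is not stated, so an effect of the solvent cannot be told apart from that of TAX. All 6 libraries are of 1 cell line. The labels do not say whether the replicates were separate cultures, so p-values measure only the spread between these libraries.

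The 8 genes encode proteins of the body's outer and circulating defence. SLPI and PI3 (elafin) encode small secreted inhibitors of the serine proteases that neutrophils release, and both carry the WAP fold, which also has antimicrobial activity. SAA1 and SAA2 encode serum amyloid A, an acute-phase protein carried by high-density lipoprotein, and LCN2 encodes lipocalin 2, which binds the siderophores that bacteria use to take up iron. C3 encodes the central component of complement, and CFB encodes factor B, the serine protease that forms the C3 convertase of the alternative pathway. PDZK1IP1 (MAP17) encodes a small membrane protein of epithelial cells that binds PDZ-domain scaffold proteins. The liver makes many of these proteins in inflammation, and epithelia of the airway, gut, skin and urogenital tract make them locally. Cytokines such as IL-1, IL-6 and TNF are known to induce many of them through the transcription factors NF-kB, C/EBP and STAT3.

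Promoters are shown because textbook inducers of many of these genes act through short DNA motifs. RefSeq promoter sequences (GRCh38.p14) were matched by symbol for 3 of the 8 genes. The 250 bases before the start site are printed 5′ to 3′ on the strand of the gene for LCN2 (chr9:128149203-128149452, plus strand), PDZK1IP1 (chr1:47190037-47190286, minus strand) and CFB (chr6:31945845-31946094, plus strand). The start sites of RefSeq lie downstream of the gene starts of GENCODE 29, so all 3 windows fall inside the GENCODE gene bounds given below. Capitals mark motif matches.
LCN2: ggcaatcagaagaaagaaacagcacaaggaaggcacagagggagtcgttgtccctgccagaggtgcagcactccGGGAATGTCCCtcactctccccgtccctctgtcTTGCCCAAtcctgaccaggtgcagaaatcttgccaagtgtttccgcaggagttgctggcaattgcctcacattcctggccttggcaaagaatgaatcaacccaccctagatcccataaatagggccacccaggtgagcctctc
PDZK1IP1: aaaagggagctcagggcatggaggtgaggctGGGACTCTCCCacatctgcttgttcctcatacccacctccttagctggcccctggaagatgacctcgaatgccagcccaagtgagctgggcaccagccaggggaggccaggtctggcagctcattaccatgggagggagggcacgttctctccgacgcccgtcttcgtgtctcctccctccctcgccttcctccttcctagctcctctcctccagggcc
CFB: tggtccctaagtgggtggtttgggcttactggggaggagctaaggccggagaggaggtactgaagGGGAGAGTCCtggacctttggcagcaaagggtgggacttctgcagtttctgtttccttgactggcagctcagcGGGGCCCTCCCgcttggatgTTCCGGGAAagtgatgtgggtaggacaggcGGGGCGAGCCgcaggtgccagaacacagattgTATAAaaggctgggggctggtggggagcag

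On both strands, 4 motifs were searched from 250 bases before to 50 bases after the start site. The NF-kB-like motif was GGG, any 5 bases and CC, the C/EBP-like motif was TTNNGNAA, the STAT-like motif was TTCNNNGAA and the TATA motif was TATAA. LCN2 held 1 stretch with 2 overlapping NF-kB-like matches, starting at positions -176 and -175 from the start site, and 1 C/EBP-like match at -143. PDZK1IP1 held 2 overlapping NF-kB-like matches at -219 and -218 and none of the other motifs. CFB held 4 NF-kB-like matches, at -185, -112, -111 and -62, of which the middle pair overlap, together with a STAT-like match at -92 and TATAA at -30. These letters are common. Of 35116 promoters of this length, 58.7% held the NF-kB-like motif, 36.8% the C/EBP-like motif, 7.7% the STAT-like motif and 20.4% TATAA. A match is a description of the sequence, and binding was not measured.

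Expression was read as FPKM, a fragment count scaled to gene length and to library depth. Of the 8 genes, 6 reached 1 FPKM or more in 3 or more of the 6 libraries, the filter on low values, as did 12359 identifiers in all. PI3 and SAA2 lay below 1 FPKM in every library. They were carried in a second fit, added after the data were seen. Log2 fold changes are TAX minus control on the scale of log2(FPKM + 1) from limma, a scale that understates the change of genes with low FPKM. In bulk RNA, fewer cells that express a gene and less RNA per cell cannot be told apart.

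SLPI separated the groups widely. It lies on chromosome 20 from 45252239 to 45254564 on the minus strand (GENCODE 29, GRCh38). SLPI was at 4.44, 4.40 and 3.92 FPKM in control replicates 1, 2 and 3 and at 1.10, 0.820 and 0.996 FPKM in TAX replicates 1, 2 and 3. The lowest control library was thus well above the highest TAX library. The mean of SLPI was 4.25 ± 0.291 FPKM (SD, n = 3) in control cells and 0.973 ± 0.143 FPKM (SD, n = 3) in TAX-treated cells, 4.37-fold lower with TAX. Its log2 fold change was -1.41 (standard error 0.088), and -2.03 with a pseudocount of 0.1. The value of -1.41 ranked 3 among the 12359 tested genes when ordered from the lowest. Nothing is read from this rank, since SLPI was chosen with this comparison known. TAX replicates 2 and 3 of SLPI were below 1 FPKM.

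PI3, the other antiprotease, lies 75695 bp from SLPI in the same cluster of WAP genes (chromosome 20, 45174876 to 45176544, plus strand). PI3 was at 0.541, 0.416 and 0.216 FPKM in control libraries and at 0.246, 0.0870 and 0.0990 FPKM in TAX libraries. TAX replicate 1 was above control replicate 3, so the groups overlapped. Its mean was 0.391 ± 0.164 FPKM in control cells and 0.144 ± 0.0885 FPKM with TAX (SD, n = 3 each), and its log2 fold change in the second fit was -0.28 (standard error 0.106). SLPI exceeded PI3 by a factor of 8.21, 10.6 and 18.2 in control replicates 1 to 3 and of 4.49, 9.42 and 10.1 with TAX. The order of this ratio did not separate the groups. The nearest listed genes on each side of SLPI and PI3 were at or close to 0. SEMG1 and SEMG2, which encode semenogelins of seminal fluid, were listed at 0 in all 6 libraries, WFDC12, another WAP gene, did not exceed 0.0288 FPKM, and MATN4 did not exceed 0.138 FPKM.

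SAA1 and SAA2 form a neighbouring pair on chromosome 11, with SAA1 from 18266174 to 18269977 on the plus strand and SAA2 from 18239223 to 18248643 on the minus strand, 17531 bp apart. SAA1 was at 2.64, 1.74 and 1.91 FPKM in control libraries and at 0.491, 0.451 and 0.319 FPKM in TAX libraries. All TAX values of SAA1 were far below the lowest control value. The mean of SAA1 was 2.09 ± 0.477 FPKM in control cells and 0.420 ± 0.0898 FPKM with TAX (SD, n = 3 each), 4.98-fold lower. Its log2 fold change was -1.11 (standard error 0.113), and -2.07 with a pseudocount of 0.1. SAA1 passed the filter through its control values alone.

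SAA2 was at 0.574, 0.837 and 0.873 FPKM in control libraries and at 0.313, 0.273 and 0.132 FPKM in TAX libraries. Here too the groups did not overlap. The mean of SAA2 was 0.762 ± 0.163 FPKM in control cells and 0.239 ± 0.0953 FPKM with TAX (SD, n = 3 each), and the second fit gave a log2 fold change of -0.51 (standard error 0.0989). The coding sequences of SAA1 and SAA2 differ at 11 of 369 bases and are 97.0% identical, so how reads were divided between them is uncertain. The sum of SAA1 and SAA2 was 3.21, 2.57 and 2.78 FPKM in control libraries and 0.804, 0.723 and 0.451 FPKM in TAX libraries, a mean of 2.86 ± 0.324 FPKM against 0.660 ± 0.185 FPKM (SD, n = 3 each). The ratio of SAA1 to SAA2 was 4.59, 2.07 and 2.19 in control cells and 1.57, 1.65 and 2.42 with TAX, and it overlapped between the groups. SAA4, the constitutive serum amyloid A next to SAA2, was at 0.0334, 0.118 and 0.150 FPKM in control libraries and listed at 0 in the 3 TAX libraries. The read-through transcript SAA2-SAA4 did not exceed 0.0687 FPKM. HPS5, on the other side of SAA1, had means of 11.7 ± 1.45 FPKM and 11.7 ± 0.761 FPKM (SD, n = 3 each).

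LCN2 was the most abundant of the 8 genes. It lies on chromosome 9 from 128149071 to 128153455 on the plus strand, and the RefSeq promoter printed for it lies inside these bounds. LCN2 was at 28.1, 30.7 and 20.9 FPKM in control libraries and at 17.7, 15.0 and 14.9 FPKM in TAX libraries. The groups did not overlap, but control replicate 3 was nearer to TAX replicate 1 than to the other controls. The mean was 26.6 ± 5.05 FPKM in control cells and 15.9 ± 1.57 FPKM with TAX (SD, n = 3 each), and the log2 fold change was -0.70 (standard error 0.131). The nearest genes differed less between the groups. PTGES2, a prostaglandin E synthase, was at 26.0 ± 3.05 FPKM in control cells and 28.5 ± 1.48 FPKM with TAX, and C9orf16 was at 30.3 ± 2.49 and 26.5 ± 1.99 FPKM (SD, n = 3 each).

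C3 lies on chromosome 19 from 6677704 to 6730562 on the minus strand. C3 was at 7.36, 11.2 and 5.49 FPKM in control libraries and at 3.64, 3.25 and 3.47 FPKM in TAX libraries. The TAX libraries were close to each other and below all controls, while the control libraries were spread widely. The mean was 8.01 ± 2.90 FPKM in control cells and 3.45 ± 0.195 FPKM with TAX (SD, n = 3 each), and the log2 fold change was -0.97 (standard error 0.181). GPR108, a gene whose annotation shares 649 bp with C3, was at 24.7 ± 3.99 FPKM in control cells and 24.3 ± 0.541 FPKM with TAX (SD, n = 3 each). Its log2 fold change was -0.01, and this sign turned when control replicate 1, control replicate 2 or TAX replicate 1 was left out. TRIP10, the nearest gene on that side that does not overlap C3, was at 40.8 ± 4.89 and 43.1 ± 1.11 FPKM (SD, n = 3 each). The groups of TRIP10 overlapped. TNFSF14, the TNF-family ligand LIGHT and the nearest gene on the other side of C3, was below the filter at 0.305, 0.342 and 0.228 FPKM in control libraries and 0.0922, 0.0384 and 0.0796 FPKM in TAX libraries, and the groups did not overlap.

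CFB did not separate the groups. It lies on chromosome 6 from 31945650 to 31952084 on the plus strand, in the class III region of the major histocompatibility complex. CFB was at 3.30, 3.33 and 2.54 FPKM in control libraries and at 2.96, 2.59 and 0.788 FPKM in TAX libraries. TAX replicates 1 and 2 lay within the range of the controls, and TAX replicate 3 was far below all other libraries. The mean was 3.06 ± 0.445 FPKM in control cells and 2.11 ± 1.16 FPKM with TAX (SD, n = 3 each), and the log2 fold change was -0.46 (standard error 0.243). Without TAX replicate 3 the log2 fold change of CFB was -0.10, and with a pseudocount of 0.1 it was -0.69. Of the nearest genes that do not overlap CFB, ZBTB12 was at 3.13 ± 0.299 and 2.80 ± 0.219 FPKM (SD, n = 3 each), with overlapping groups. NELFE was at 39.9 ± 1.88 and 42.6 ± 1.72 FPKM (SD, n = 3 each), and all its TAX values lay above the controls. The log2 fold change of NELFE was 0.09 (adjusted p = 0.705 from limma).

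The low value of CFB in TAX replicate 3 coincided with a value of an overlapping gene model. AL645922.1, a read-through transcript that joins C2 to CFB and whose annotation shares 6399 bp with CFB, was at 1.47 FPKM in TAX replicate 3, at 0.0703 FPKM in control replicate 2 and listed at 0 in the other 4 libraries. C2, the complement component encoded just before CFB, was at 1.66, 1.36 and 1.87 FPKM in control libraries and at 1.47, 1.73 and 0.960 FPKM in TAX libraries, and was also lowest in TAX replicate 3. CFB plus AL645922.1 came to 3.30, 3.4 and 2.54 FPKM in control libraries and to 2.96, 2.59 and 2.26 FPKM in TAX libraries. The sum still overlapped between the groups, and its spread within TAX was smaller than that of CFB alone. The part of this division of reads in the value of CFB was not tested.

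**Figure D1:**
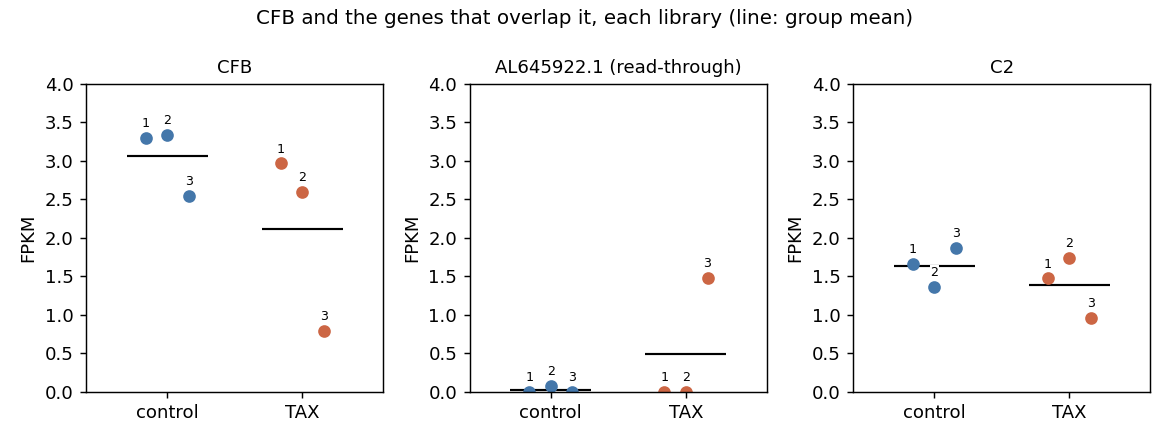
FPKM of CFB, of the overlapping read-through transcript AL645922.1 and of C2 in each library (points, numbered by replicate, 3 control and 3 TAX), with the group mean as a line and the same vertical axis in all panels. In TAX replicate 3, CFB was at 0.788 FPKM and AL645922.1 at 1.47 FPKM, while AL645922.1 was at or near 0 in the other libraries.

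PDZK1IP1 lies on chromosome 1 from 47183593 to 47191044 on the minus strand. PDZK1IP1 was at 5.05, 5.06 and 4.17 FPKM in control libraries and at 1.72, 1.80 and 1.35 FPKM in TAX libraries. The groups were well apart, and within each group replicate 3 was the lowest. The mean was 4.76 ± 0.513 FPKM in control cells and 1.62 ± 0.237 FPKM with TAX (SD, n = 3 each), 2.93-fold lower. Its log2 fold change was -1.13 (standard error 0.0999), and -1.50 with a pseudocount of 0.1. Its neighbours CYP4A22 and TAL1 did not exceed 0.0418 FPKM in any library.

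**Figure D2:**
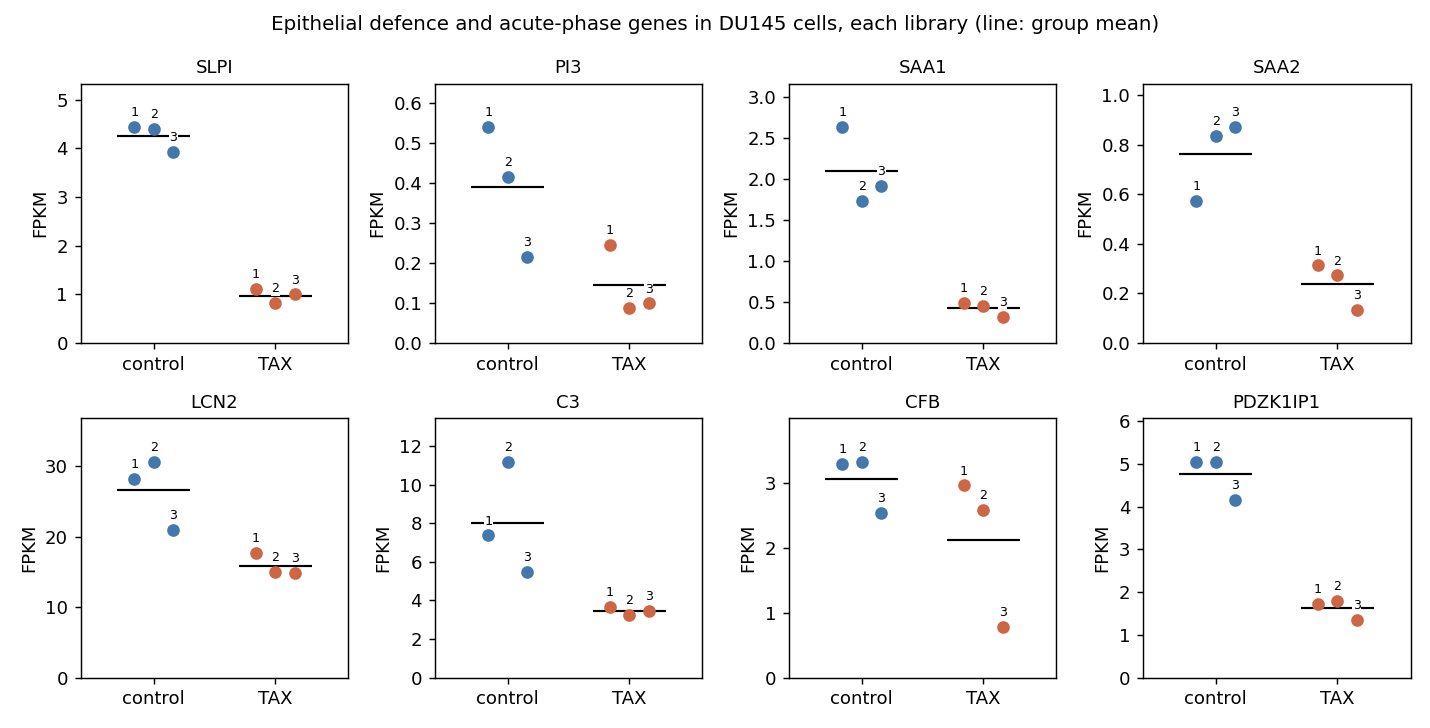
FPKM of the 8 genes in each of the 3 control and 3 TAX libraries (points, numbered by replicate), with the group mean as a line and an axis that starts at 0 in every panel. The TAX points of SLPI, SAA1, SAA2, LCN2, C3 and PDZK1IP1 lie below all control points, whereas PI3 and CFB overlap between the groups.

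Across the 8 genes, the 3 TAX values lay below the 3 control values for 6 genes, and for 5 of the 6 genes that passed the filter. Among all 12359 tested genes this was so for 3.34%. Nothing is read from this count, since the genes were chosen with this comparison known, and for the same reason no p-value is given for them. The median log2 fold change of the 6 genes was -1.04, beside 0.05 for all tested genes, of which the 1st and 99th percentiles were -0.36 and 0.41. Libraries centred on their median, or quantile normalization, shifted the median of all genes to about 0 and gave 50 and 48 lower genes and 46 and 47 higher genes, against 20 and 39 without such scaling. The 6 genes were among those tested for these counts, and all 6 kept a negative log2 fold change under these scalings.

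**Figure D3:**
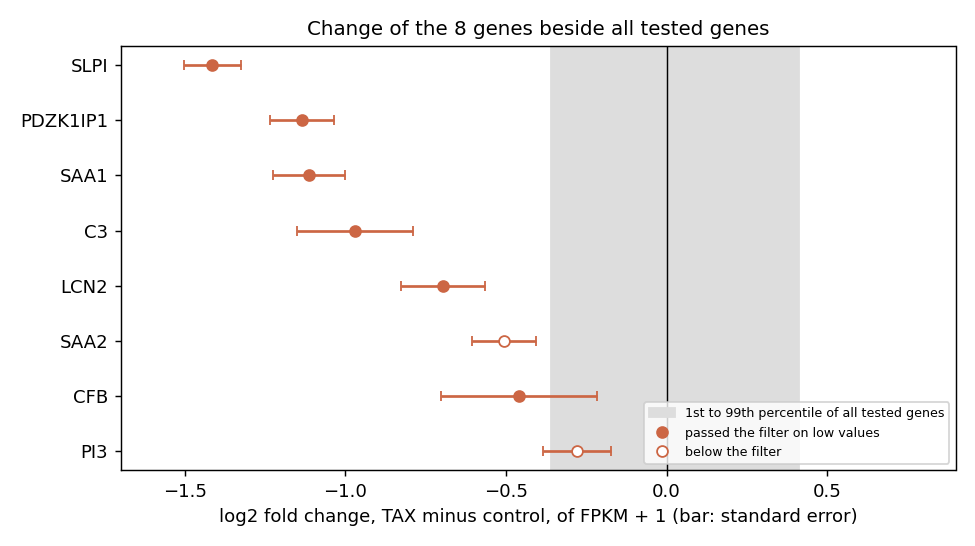
Log2 fold change (TAX minus control, of FPKM + 1) of the 8 genes with its standard error as a bar, filled points for genes that passed the filter on low values and open points for SAA2 and PI3 from the second fit. The grey band spans the 1st to 99th percentile of all tested genes, -0.36 to 0.41, and 7 of the 8 points lie below it.

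The 8 genes also differed in how they varied within a group. In control cells, the SD of log2(FPKM + 1) ran from 0.0812 for SLPI to 0.457 for C3, and with TAX from 0.0634 for C3 to 0.626 for CFB. Control replicate 3 held the lowest control value for 6 of the 8 genes, and control replicate 2 held the highest for 4. Among the TAX libraries, replicate 1 held the highest value for 7 of the 8 genes and replicate 3 the lowest for 5. Control replicate 3 also had the lowest sum of FPKM of the 6 libraries, at 322483 against up to 363724 in control replicate 1. The part of this sum in the order of the libraries was not tested.

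Since FPKM is per length, levels can be ordered between genes. In control cells the order from high to low was LCN2, C3, PDZK1IP1, SLPI, CFB, SAA1, SAA2 and PI3, and it was the same in each of the 3 control libraries. The ranges of PDZK1IP1 and SLPI overlapped over the control libraries, as did those of CFB and SAA1. Within each control library, PDZK1IP1 was still above SLPI and CFB above SAA1, and these differences were not tested. With TAX the order of the means was LCN2, C3, CFB, PDZK1IP1, SLPI, SAA1, SAA2 and PI3, with overlapping ranges for CFB and PDZK1IP1 and for SAA2 and PI3. TAX replicates 1 and 2 kept 5 of the 8 positions of the control order, and TAX replicate 3, in which CFB was low, kept all 8. Among the tested genes, the control mean of LCN2 stood at the 79.6th percentile, that of C3 at the 44.7th, that of SLPI at the 27.4th and that of SAA1 at the 12.7th. With TAX the mean of LCN2 stood at the 64.4th and that of C3 at the 21.9th percentile. The TAX means of SLPI and SAA1 were below 1 FPKM, so the filter itself places them near the bottom of the tested genes.

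Markers of other cells that make these proteins were read in the same libraries. The epithelial markers KRT8, KRT18, KRT19, EPCAM and CDH1 were present throughout. Their summed level was 428 to 545 FPKM in control and 555 to 606 FPKM in TAX libraries. KRT18, KRT19 and EPCAM lay above all controls with TAX, while KRT8 and CDH1 overlapped between the groups. Only CDH1 had a lower mean with TAX, at 47.5 ± 4.18 FPKM against 54.1 ± 13.1 FPKM in control cells (SD, n = 3 each). Of 8 neutrophil and macrophage markers, 7 were below 0.2 FPKM in every library and MPO, CSF3R and CD163 were listed at 0. The sum of that list was 20.2 to 26.9 FPKM in control and 32.6 to 33.6 FPKM in TAX libraries, nearly all of it CD68, a lysosomal protein. All 6 hepatocyte markers, among them ALB and APOA1, were below 0.2 FPKM, with sums of 0.210 to 0.283 FPKM in control and 0.174 to 0.384 FPKM in TAX libraries. Of 5 fibroblast markers, only COL1A1 exceeded 0.2 FPKM, and the sums were 1.94 to 2.12 FPKM in control and 1.5 to 1.58 FPKM in TAX libraries. The epithelial, the neutrophil and macrophage and the fibroblast sums thus did not overlap between the groups, and their part in the levels of the 8 genes was not tested.

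To place the 8 genes among their pathways, 9 lists were written from textbook knowledge, with earlier results of these data known. The 200 other genes of these lists that were found in the tables were taken from the same limma fit. Of these, 74 passed the filter, 1 was lower and 1 was higher at an adjusted p under 0.05, and 9 were lower and 13 higher at an unadjusted p under 0.05. Among all tested genes, 0.162% were lower and 0.316% higher at the adjusted threshold, and 2.41% were lower and 7.73% higher at the unadjusted p. These shares are over every tested gene, including those of the 8 genes that passed the filter. The related gene called higher, IL1RL1, passed the filter through its TAX values alone. The median log2 fold change of the 74 related genes was -0.04, against 0.05 for all tested genes. A further 102 of the 200 genes stayed below 0.2 FPKM in every library, and 38 of these were listed at 0 in all 6.

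**Figure D4:**
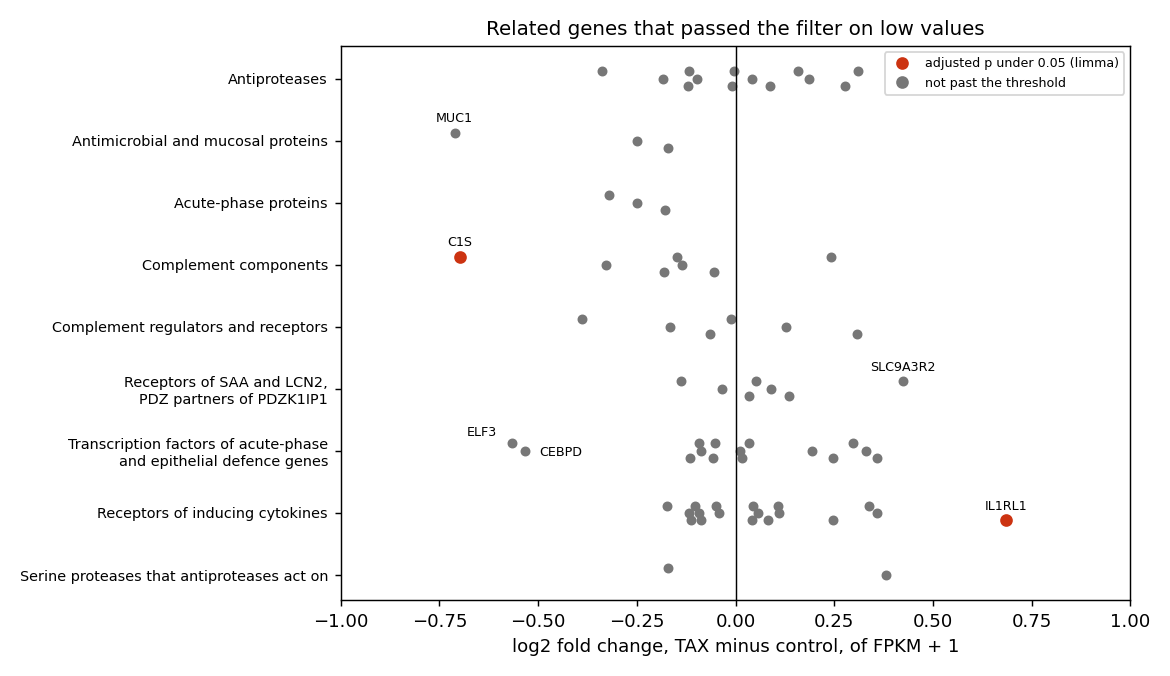
Log2 fold change (TAX minus control, of FPKM + 1) of the 74 related genes that passed the filter, 1 point per gene in 9 lists, with red for an adjusted p under 0.05 from limma. C1S (-0.70) and IL1RL1 (0.69) are the red points, and most genes of each list lie within 0.4 of 0.

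Among other complement components, 7 of 24 genes passed the filter, with 1 lower and 0 higher by the adjusted p, 2 lower and 0 higher by the unadjusted p, and a median log2 fold change of -0.15. C1S, the protease that cleaves C4 and C2 in the classical pathway, was at 5.03, 7.36 and 5.12 FPKM in control libraries and at 3.17, 2.84 and 3.51 FPKM in TAX libraries, and the groups did not overlap. It fell by 0.70 on the log2 scale (standard error 0.127, adjusted p = 0.0482 from limma). This call stood close to the threshold and was lost when any 1 library was left out, with adjusted p from limma between 0.0643 and 0.179, and with a filter of 0.1 FPKM (adjusted p = 0.0895), in a range from 0.0329 to 0.283 over all alternatives. C1RL, a relative of C1R that cleaves prohaptoglobin, was at 13.3 ± 1.62 and 10.4 ± 0.318 FPKM (SD, n = 3 each), with an adjusted p of 0.257 from limma, and passed the threshold with quantile normalization (adjusted p = 0.0392) and with centred libraries (adjusted p = 0.0388). C1R, C2 and C5 had log2 fold changes of -0.13, -0.15 and -0.05 with overlapping groups.

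Several complement regulators were expressed at far higher levels than C3 and CFB. Of 22 regulators and receptors, 6 passed the filter, with 0 called in either direction and 1 higher and 1 lower at an unadjusted p under 0.05. Their median log2 fold change was -0.04. CD46, which protects the cell's own membrane by inactivating C3b, was at 118 ± 10.1 FPKM in control cells and 112 ± 0.512 FPKM with TAX (SD, n = 3 each). CD55, which speeds the decay of the convertases, was at 32.9 ± 4.43 and 32.4 ± 1.92 FPKM, and CLU (clusterin) was at 75.5 ± 6.63 and 67.1 ± 5.38 FPKM (SD, n = 3 each). C1QBP, named as a receptor of C1q but mostly mitochondrial, was at 127 ± 5.65 and 140 ± 11 FPKM (SD, n = 3 each). SERPING1, the inhibitor of C1r and C1s, was named after its values were seen. It was at 3.69 ± 0.564 and 2.58 ± 0.348 FPKM (SD, n = 3 each), with a log2 fold change of -0.39 and an adjusted p of 0.234 from limma. CD59, which blocks the membrane attack complex and was named in the same way, was at 28.4 ± 3.04 and 35.5 ± 5.61 FPKM (SD, n = 3 each), with a log2 fold change of 0.31 (adjusted p = 0.419 from limma).

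Of 25 other antiproteases, 13 passed the filter, with 0 called in either direction, 2 higher and 1 lower at an unadjusted p under 0.05, and a median log2 fold change of -0.0032. SPINT2, a Kunitz-type inhibitor of hepsin and matriptase, was at 165 ± 15.6 FPKM in control cells and 175 ± 6.07 FPKM with TAX (SD, n = 3 each). CSTB, a cystatin, was at 121 ± 11.8 and 111 ± 7.10 FPKM, and SERPINB6 was at 48.5 ± 3.35 and 54.2 ± 2.55 FPKM (SD, n = 3 each). SERPINA1, alpha-1 antitrypsin, inhibits the same elastase as SLPI and elafin and is itself an acute-phase protein. It was at 43.7, 38.7 and 31.9 FPKM in control libraries and at 44.7, 52.5 and 44.4 FPKM in TAX libraries, all above the controls, with a log2 fold change of 0.31 (adjusted p = 0.419 from limma). WFDC2 (HE4), a WAP gene of the SLPI cluster named after its values were seen, was at 22.0, 24.5 and 18.8 FPKM in control libraries and 14.6, 18.6 and 17.9 FPKM in TAX libraries, with a log2 fold change of -0.34 (adjusted p = 0.372 from limma). SERPINB8, named in the same way, had a log2 fold change of 0.28 (adjusted p = 0.32 from limma). Of the serine proteases that such inhibitors act on, 2 of 16 passed the filter, with 0 called and 1 higher at an unadjusted p under 0.05. PRSS22, a tryptase, was at 3.03 ± 0.208 and 4.25 ± 0.418 FPKM (SD, n = 3 each; log2 fold change 0.38, adjusted p = 0.137 from limma), and ST14 (matriptase) was at 3.39 ± 0.338 and 2.89 ± 0.190 FPKM.

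Other antimicrobial and mucosal genes were mostly low, with 3 of 33 past the filter and 25 of 33 below 0.2 FPKM in every library. None of the 3 was called, and 2 were lower at an unadjusted p under 0.05. The list left out S100A9, a subunit of the antimicrobial protein calprotectin, which is named below for its likeness to SLPI. S100A9 had a log2 fold change of -1.25 (adjusted p = 0.0013 from limma, or 0.0808 with no filter on low values). MUC1, the membrane mucin, was at 20.8, 27.0 and 16.7 FPKM in control libraries and at 12.7, 11.2 and 13.8 FPKM in TAX libraries, without overlap. Its log2 fold change was -0.71 (adjusted p = 0.0862 from limma), and it passed the threshold with quantile normalization (adjusted p = 0.0403) and with centred libraries (adjusted p = 0.0388), in a range from 0.0388 to 0.35 over all alternatives. RNASE4 and ANG, neighbouring secreted ribonucleases, had log2 fold changes of -0.25 and -0.17. Of 23 other acute-phase genes, 3 passed the filter, none was called and 1 was lower at an unadjusted p under 0.05. The ferritin genes FTH1 and FTL had log2 fold changes of -0.18 and -0.25 with overlapping groups. MT2A, a metallothionein, was at 685 ± 87.6 FPKM in control cells and 545 ± 25.8 FPKM with TAX (SD, n = 3 each), with a log2 fold change of -0.32 (adjusted p = 0.372 from limma).

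The transcription factors known to act on these genes were expressed in all libraries. Of 19, 15 passed the filter, none was called, and 4 were higher and 2 lower at an unadjusted p under 0.05, with a median log2 fold change of 0.01. CEBPD, the C/EBP factor induced in the acute-phase response, was at 48.6, 55.4 and 41.4 FPKM in control libraries and at 35.1, 33.0 and 30.9 FPKM in TAX libraries. The groups did not overlap. CEBPD had a log2 fold change of -0.53 with a standard error of 0.108 (adjusted p = 0.0854 from limma). CEBPD passed the threshold with quantile normalization (adjusted p = 0.0212), with centred libraries (adjusted p = 0.0205) and without control replicate 3 (adjusted p = 0.0483), and over all alternatives its adjusted p from limma ran from 0.0205 to 0.283. ELF3, an epithelial ETS factor named after its values were seen, was at 27.9, 36.8 and 21.9 FPKM in control libraries and at 19.1, 17.3 and 19.9 FPKM in TAX libraries, with a log2 fold change of -0.57 (adjusted p = 0.214 from limma). CEBPB had a log2 fold change of -0.09, STAT3 of 0.02 and NFKB2 of 0.33 (adjusted p = 0.350 from limma for NFKB2), and the signs of CEBPB and STAT3 turned under other settings. RELB, NFKB1 and CEBPG, named after their values were seen, had log2 fold changes of 0.30, 0.25 and 0.36, with adjusted p from limma of 0.338, 0.471 and 0.459.

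Among the receptors of the inducing cytokines, 18 of 20 passed the filter, with 1 higher and 0 lower by the adjusted p, 4 higher and 0 lower by the unadjusted p and a median log2 fold change of 0.04. IL1RL1 (ST2), the receptor of IL-33, was at 0.471, 0.574 and 0.399 FPKM in control libraries and at 1.49, 1.17 and 1.49 FPKM in TAX libraries, without overlap. The log2 fold change of IL1RL1 was 0.69 (standard error 0.0907), or 1.36 with a pseudocount of 0.1. It passed the filter through its TAX values alone, so its call there (adjusted p = 0.0114 from limma) is partly set by the filter. All 6 of its values passed the filter of 0.1 FPKM, where the adjusted p from limma was 0.0169. The call was lost without control replicate 1 (adjusted p = 0.0544), without control replicate 3 (adjusted p = 0.0591) and with no filter on low values (adjusted p = 0.0977, the highest over all alternatives). OSMR, the receptor of oncostatin M, was at 265 ± 35.7 and 246 ± 25.3 FPKM (SD, n = 3 each), the highest level in the list. IL6ST (gp130) was at 41.6 ± 4.26 and 44.1 ± 4.5 FPKM, TNFRSF1A at 72.6 ± 8.65 and 75.2 ± 3.36 FPKM and IFNGR2 at 34.1 ± 3.56 and 36.8 ± 0.676 FPKM (SD, n = 3 each). IL6R, the receptor subunit that binds IL-6, was named after its values were seen. It was at 8.56, 9.19 and 8.08 FPKM in control libraries and at 11.8, 10.5 and 11.7 FPKM in TAX libraries, without overlap, with a log2 fold change of 0.36 (adjusted p = 0.144 from limma). IL31RA and IL18R1, named in the same way, had log2 fold changes of 0.34 and 0.25, with adjusted p from limma of 0.237 and 0.36. Of 18 genes listed as receptors of serum amyloid A and lipocalin 2 or PDZ partners of PDZK1IP1, 7 passed the filter. None was called and 1 was higher at an unadjusted p under 0.05. SLC9A3R2 (NHERF2), a PDZ scaffold of the apical membrane, was at 8.21 ± 1.43 and 11.2 ± 0.305 FPKM (SD, n = 3 each), with a log2 fold change of 0.42 (adjusted p = 0.20 from limma). SLC9A3R1 (NHERF1) and SCARB1, a receptor for serum amyloid A, had log2 fold changes of 0.05 and -0.03, whose signs turned under other settings. TANK, an adaptor of NF-kB signalling, was counted in this list although it is neither such a receptor nor a PDZ partner. Its log2 fold change was 0.04, and this sign also turned under other settings.

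**Figure D5:**
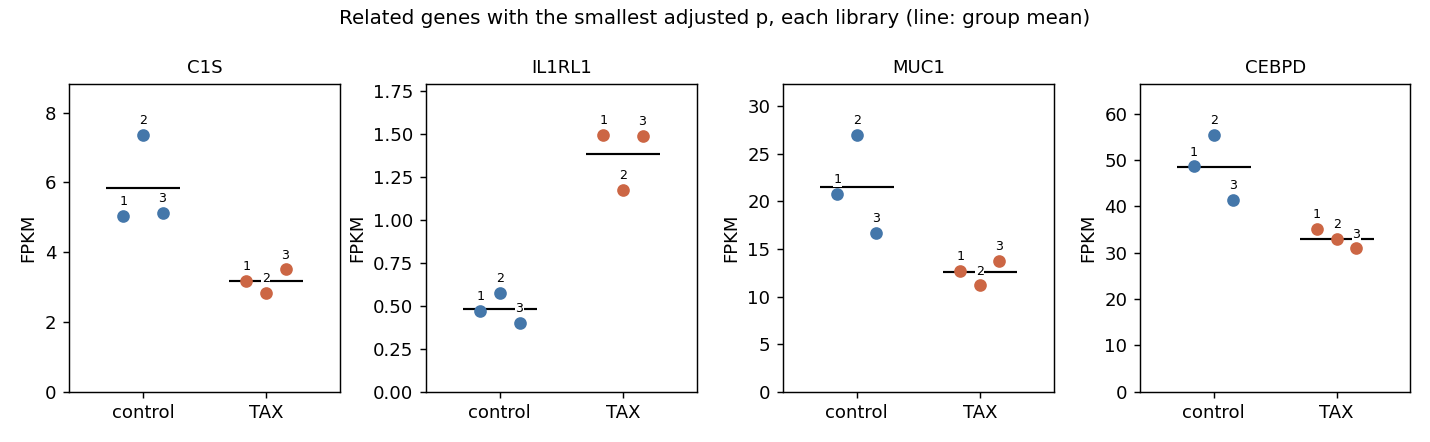
FPKM of C1S, IL1RL1, MUC1 and CEBPD in each of the 3 control and 3 TAX libraries (points, numbered by replicate), with the group mean as a line and axes that start at 0. IL1RL1 lies above and the other 3 genes lie below all control points with TAX, and of these 4 genes C1S and IL1RL1 passed the adjusted threshold.

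The genes whose profile over the 6 libraries was most like that of the 8 genes were found by Pearson's r of log2(FPKM + 1) with the mean standardized value of the 6 that passed the filter. These r values describe 6 points that fall into 2 groups, and the points share their libraries. They were 0.995 for B2M (beta-2 microglobulin of MHC class I), 0.986 for PLAAT4 (a retinoid-induced phospholipase), 0.985 for HMGB3, 0.982 for SC5D (a sterol desaturase) and 0.980 for ODF3B, and 36 genes exceeded 0.95. B2M was at 719, 734 and 701 FPKM in control libraries and at 660, 644 and 624 FPKM in TAX libraries, so a high r went with a difference of only 1.12-fold between the means. Most like SLPI alone were IFIT2 (r = 0.996), IFITM10 (0.992), COL1A1 (0.982), S100A9 (0.980) and IFIT3 (0.978). IFIT2, an interferon-induced gene, was at 17.3 ± 0.963 FPKM in control cells and 9.32 ± 0.613 FPKM with TAX, and S100A9, a subunit of calprotectin, was at 19.0 ± 3.36 and 7.32 ± 0.131 FPKM (SD, n = 3 each).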

How the data were processed

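RNA of 6 DU145 libraries, 3 control and 3 TAX, was isolated with Trizol and prepared with an mRNA library kit. For every library the authors deposited a separate table of values per identifier, read here as FPKM, so replicates were not pooled. The unit is not named in the tables, and TPM is not wholly excluded. HISAT2 2.2.0, StringTie 2.1.2 and GRCh38 are named in the submitters' processing notes. Annotation and filters are not given in the sources used here. The values sum to 322483 to 363724 per library, 3997 to 4798 of the 23062 identifiers are listed at 0, and Pearson's r of log2(FPKM + 1) across genes within a group was 0.991 to 0.995. Depth is unknown. Low values showed no steps of whole reads. Between control replicates 1 and 3, the log2 ratios of 648 genes under 0.05 FPKM put no more than 5.4% into a 0.1 interval. No counting intervals are given. An exact 0 can be a failed estimate.

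The 12359 genes that reached 1 FPKM in 3 or more of the 6 libraries were fitted as log2(FPKM + 1) with limma 3.58.1 in R 4.3.3 (trend, no covariate, Benjamini-Hochberg adjustment over all tested genes, threshold 0.05). A second fit, added after the data were examined, kept PI3 and SAA2. The code was tested on simulated data. Groups were taken from the sample titles. The 8 genes and all lists were chosen with earlier results of these data known. Named genes were the 8 genes, their nearest neighbours, from each list every called gene and the 4 others with the highest mean FPKM, and the 5 genes most alike in profile. GPR108, AL645922.1, SAA2-SAA4, CD68 and the remaining related genes with an unadjusted p under 0.05 were named in addition. Some marker genes are not reported here. Positions are from GENCODE 29 (GRCh38), and the coding sequences of SAA1 and SAA2 are the longest open reading frames of its transcripts. Promoters are from RefSeq (GRCh38.p14). Alternatives were a pseudocount of 0.1, a filter of 0.1 FPKM or none, limma without trend, libraries centred on their medians or quantile-normalized, a replicate block, and fits that left out each library in turn.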

Additional observations from a re-analysis of the deposited data

How the results depend on the processing

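The log2 fold changes of SLPI, SAA1, LCN2, C3, CFB and PDZK1IP1 stayed negative under every alternative run, and their median, -1.04, was -1.32 with a pseudocount of 0.1. With that pseudocount SLPI moved to -2.03, SAA1 to -2.07 and PDZK1IP1 to -1.50, each by more than its SD within groups. LCN2, C3 and CFB moved by less than theirs. The counts over all genes moved most, from 39 higher and 20 lower to 25 and 12 with a filter of 0.1 FPKM, and to 0 and 1 with no filter, where limma gave 1244 higher and 610 lower at an unadjusted p under 0.05. They were 48 lower with quantile normalization and 50 lower with centred libraries, and 9 to 28 higher and 8 to 15 lower when a library was left out. All these counts were taken over every tested gene, including those of the 8 genes that were tested. The lower filter and no filter tested 16698 and 20280 genes in place of 12359, and the cause of these shifts was not tested.

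Of the related genes, 1 was higher and 1 lower. The lower count was 0 with a filter of 0.1 FPKM, 0 with no filter, and 4 with quantile normalization and with centring (C1S, C1RL, CEBPD and MUC1). The higher count was 0 with no filter. Leaving out a library gave 0 to 1 in each direction, and without control replicate 3 the lower gene was CEBPD, not C1S. TAX replicates 1 and 2 kept 5 of the 8 positions of the control order.

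The labels do not say whether replicate numbers pair the samples. Deviations from the group means had r of -0.117, -0.333 and -0.171 between same-numbered libraries, and of -0.167 to 0.292 between the others. With 3 libraries in each group, these r values cannot settle the pairing. With a replicate block, 13 genes were higher and 13 lower, and 0 related genes were lower.

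Signs turned only for genes near 0. With quantile normalization and with centring the log2 fold change was -0.027 and -0.023 for TANK, -0.0062 and -0.0052 for SLC9A3R1, -0.053 and -0.042 for STAT3, and -0.021 and -0.0015 for TNFRSF1A. With a library left out, the values that crossed 0 ran from -0.11 to 0.0048 for CD46, -0.12 to 0.067 for CD55, -0.16 to 0.077 for SCARB1, -0.00055 to 0.10 for SLC9A3R1, -0.14 to 0.10 for STAT3, -0.22 to 0.056 for CEBPB, -0.037 to 0.13 for TNFRSF1A, -0.00040 to 0.17 for IL6ST and -0.14 to 0.068 for GPR108. Depth is unknown, so differences in genes under 1 FPKM rest on the spread between libraries alone.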
